A study of Homo sapiens with 56 samples.

Results

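The keratins of simple and of stressed epithelium described here are 8 genes: KRT8, KRT18 and KRT19 of simple epithelium, KRT80, the stress keratins KRT6A, KRT16 and KRT17, and KRT23. They were picked as a list of genes and matched by symbol to the gene identifiers of the deposited counts, out of 17536 genes in either of the 2 count tables. The list was chosen by the measured levels of these genes in the untreated lines and by their change with 2-methylisocitrate within each line. Levels and changes of the 8 genes are therefore given as a description with no test, also where a gene is said to be called. All 8 have a row in the table of HT29, SKCO1 and SW1417, and 7 have one in the table of HCT116, DLD1, LoVo and SW948. KRT23 was not analysed here in the last-named 4 lines.

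RNA was sequenced from 7 established human colorectal cancer cell lines, labelled as wild-type epithelial cells of the colon. Each line received either 10 mM of 2-methylisocitrate (2-MiCit), a tricarboxylic acid made by bacteria that break down propionate, or water, the vehicle, as control. The 14 groups of 4 libraries make 56, and no label gives a length of treatment or a chemotherapy drug. Nothing in the labels says that the 4 libraries of a group came from separate cultures, so their spread may be technical. HCT116, DLD1, LoVo and SW948 libraries held 13.8 to 19.4 M counts, and the more deeply sequenced libraries of HT29, SKCO1 and SW1417 held 29.1 to 45.4 M.

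Keratins are the intermediate filament proteins of epithelial cells. A filament is built from pairs of 1 acidic type I and 1 basic type II keratin, and a keratin without a partner is degraded. KRT8 (type II) with KRT18 or KRT19 (type I) makes the filament of single-layered epithelia such as that of the colon, where it carries mechanical load and anchors at desmosomes. KRT6A (type II) with KRT16 or KRT17 (type I) is made in wounded, inflamed or rapidly growing squamous epithelium and in many carcinomas. KRT80 is a type II keratin found near desmosomes and the cell edge of many epithelia. KRT23 is a type I keratin known from some colorectal tumours and from liver disease.

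In GENCODE 29 on GRCh38, all 8 are protein-coding genes of the 2 keratin clusters. On chromosome 12, KRT80 (ENSG00000167767) lies at 52168996 to 52192000, KRT6A (ENSG00000205420) at 52487174 to 52493257 and KRT8 (ENSG00000170421) at 52897187 to 52949954, all on the minus strand. KRT18 (ENSG00000111057), the 1 type I gene on chromosome 12, lies at 52948871 to 52952901 on the plus strand, so its annotated start overlaps the annotated start of KRT8. The sources used here do not give whether the counting used the strand of the reads. On chromosome 17, KRT23 (ENSG00000108244) lies at 40922696 to 40937634, KRT19 (ENSG00000171345) at 41523617 to 41528308, KRT16 (ENSG00000186832) at 41609778 to 41615899 and KRT17 (ENSG00000128422) at 41619441 to 41624842, all on the minus strand.

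The end of the central rod domain is the most conserved stretch of a keratin. It is shown for 3 type I members because it displays how alike their messenger RNAs are where short reads must be assigned to one of them. Each line gives 66 bases of the coding strand, 5′ to 3′, of the GENCODE 29 transcript with the longest coding sequence. Capitals mark the 7 codons of the helix termination motif, and 15 codons before it are in lower case.
KRT18: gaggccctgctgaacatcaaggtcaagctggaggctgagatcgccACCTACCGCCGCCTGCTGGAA
KRT16: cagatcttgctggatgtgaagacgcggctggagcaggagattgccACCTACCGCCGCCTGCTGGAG
KRT17: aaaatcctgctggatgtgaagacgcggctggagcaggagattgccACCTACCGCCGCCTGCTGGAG

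In this window the stress keratins KRT16 and KRT17 share 63 of 66 bases (95.5%), whereas KRT16 and KRT18 share 48 (72.7%). Over the whole transcript the members differ in how much of their sequence occurs in other genes. Of the stretches of 31 bases in the transcript, 1.46% recur elsewhere for KRT80 and none for KRT23, against 11.4% for KRT19, 34.6% for KRT17, 39.5% for KRT16, 52.7% for KRT6A, 62% for KRT8 and 66.3% for KRT18. For KRT6A the copies are KRT6C (45.7%) and KRT6B (40.5%), and for KRT8, KRT18 and KRT19 the gene with the most shared stretches is a pseudogene. The authors' counts share reads between such copies, so part of a member's count is uncertain. Annotated pseudogenes with a row made up at most 0.652% of the counts of KRT8 and its pseudogenes together in any library, 0.0326% for KRT18 and 0.693% for KRT19. For KRT17 this share was 0 to 1.83% in SW1417 and 4.73 to 7.11% in HT29, and it reached 90% in DLD1, 66.7% in SKCO1 and 53.3% in LoVo, where KRT17 had few counts.

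KRT8 was abundant in every control group and differed between lines. Levels below are given as CPM, in which each count is divided by its library total after TMM scaling within each table, and only lines of the same table are ranked. In the deeper table KRT8 stood at 8962, 8815, 9126 and 9076 CPM in the 4 control libraries of SKCO1. It was lower in HT29 (4772 to 5297 CPM) and SW1417 (4431 to 4912 CPM), and these lower lines overlapped each other. In the other table DLD1 (5585 to 7230 CPM) and LoVo (4309 to 5617 CPM) overlapped, HCT116 lay below both (2230 to 2409 CPM) and SW948 was lowest (970.4 to 1245 CPM).

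KRT18 followed the same order of lines as KRT8. Its control libraries held 3649 to 3899 CPM in SKCO1, above HT29 (2415 to 2902 CPM) and SW1417 (2077 to 2568 CPM), which overlapped. In the other table DLD1 (3488 to 4755 CPM) was highest, then LoVo (2562 to 3302 CPM), HCT116 (1015 to 1176 CPM) and SW948 (780 to 965.1 CPM), with no overlap between neighbours. Across libraries log2(CPM + 1) of KRT18 and KRT8 correlated with Pearson r = 0.96 over the 32 libraries of 1 table and 0.957 over the 24 of the other. These coefficients are descriptive, since the libraries of a line share its level and the genes share library and depth.

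KRT19, the alternative type I partner, had another order. Within the deeper table SKCO1 was again highest (1318 to 1394 CPM), but SW1417 (917.3 to 1050 CPM) lay above HT29 (536.8 to 574.6 CPM). In the other table HCT116 was highest (888.7 to 1025 CPM), with DLD1 (623.4 to 873 CPM) and LoVo (502 to 723.5 CPM) overlapping below it and SW948 lowest (366.8 to 445.9 CPM). HCT116 thus held more KRT19 than DLD1 while it held less KRT8 and KRT18. The control libraries of HCT116 had 0.872 to 0.88 KRT19 counts per KRT18 count, against 0.175 to 0.187 in DLD1 and 0.188 to 0.219 in LoVo. KRT8 counts per KRT18 count varied less, from a median of 1.27 in SW948 to 2.378 in SKCO1.

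To set the genes against each other within a line, counts were divided by the median transcript length of the gene and scaled to the same sum in every library. On this scale KRT8 ranked first in every line, with a control median of 9735 in SKCO1, 6051 in DLD1, 5202 in HT29, 4842 in LoVo, 4755 in SW1417, 2526 in HCT116 and 1181 in SW948. KRT18 came next and KRT19 after it in 5 lines. In HCT116 KRT19 (median 1463) lay above KRT18 (767), and in SW948 they overlapped (598 and 595.9). With the length of the transcript that has the longest coding sequence, KRT18 lay above KRT19 in HCT116 (768.5 and 689.7) and in SW948 (596.5 and 281.6), so their order rests on the length. With the longest transcript instead, KRT18 (1127) lay above KRT8 (1050) in SW948 and the libraries overlapped.

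In the table of HCT116, DLD1, LoVo and SW948, the highest control mean of KRT80 was 11.3-fold the lowest, against 5.47-fold for KRT8, 4.41-fold for KRT18 and 2.41-fold for KRT19. In the deeper table KRT80 spanned 1.96-fold, less than KRT19 (2.46-fold). Control libraries of the deeper table held 212.3 to 246 CPM in HT29, 156.9 to 172.6 CPM in SW1417 and 114.9 to 123.1 CPM in SKCO1, with no overlap. In the other table DLD1 stood at 77.1, 118.1, 128.6 and 118.8 CPM, far above HCT116 (11.9 to 16.7 CPM) and SW948 (13.5 to 14.6 CPM), which overlapped, and above LoVo (9.08 to 10.3 CPM). DLD1 was high for KRT80 and SW948 low, as for KRT8 and KRT18. LoVo broke this parallel, with the least KRT80 of its table but more KRT8 and KRT18 than HCT116 and SW948. In the deeper table SKCO1 had the most KRT8 and KRT18 and the least KRT80.

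**Figure D1:**
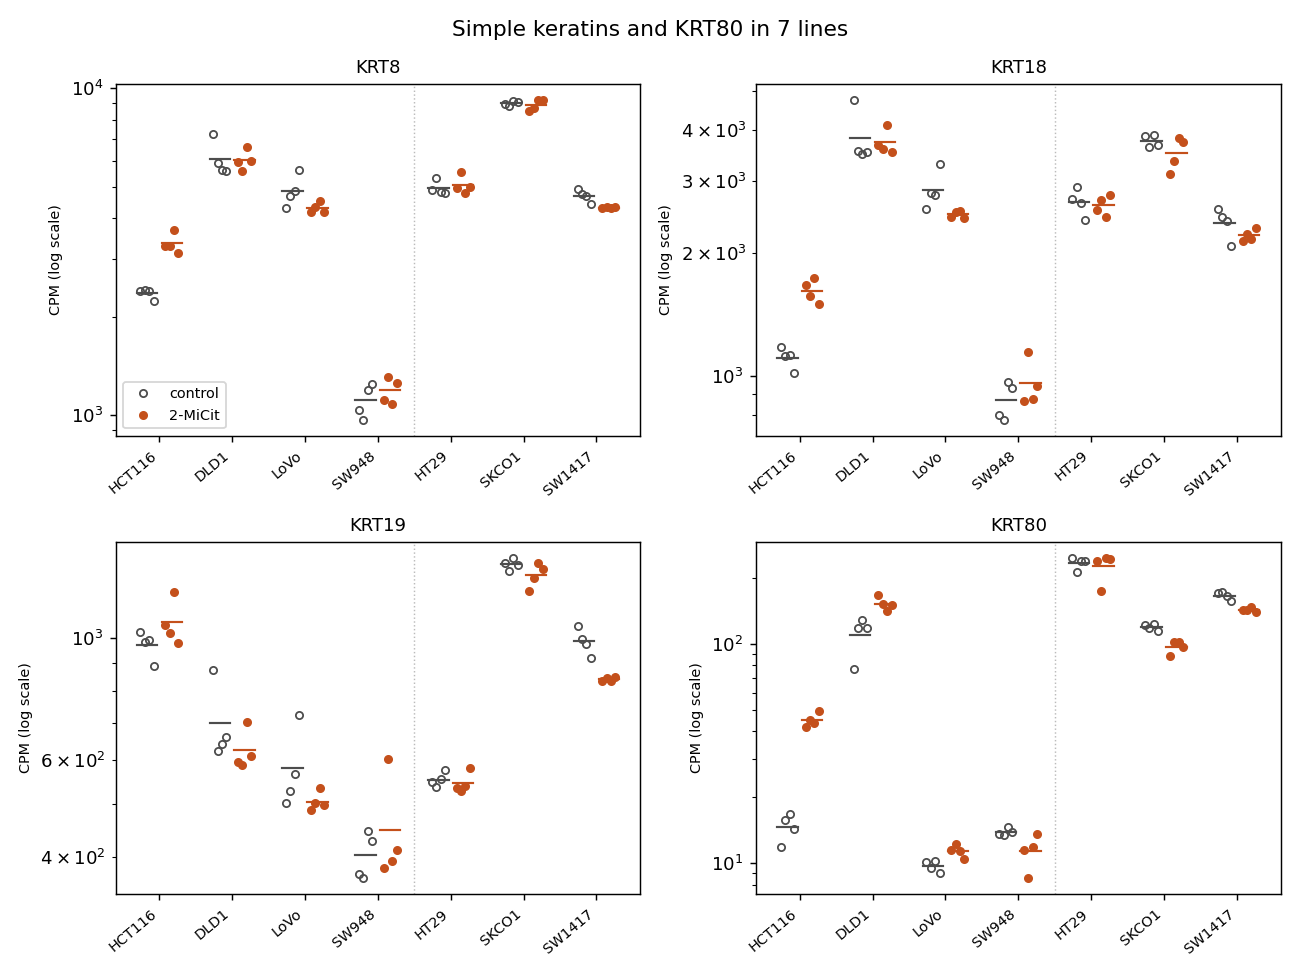
CPM on a log axis of KRT8, KRT18, KRT19 and KRT80 in each library of the 7 lines, control as open and 2-MiCit as filled circles, with bars at the mean of 4 libraries; a dotted line separates the 2 count tables. HCT116 is the line where the 2-MiCit libraries of KRT8, KRT18 and KRT80 all lie above the controls, and in SW1417 those of KRT8, KRT19 and KRT80 all lie below.

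The stress keratins were low or near the counting limit in most lines and reached at least 5 CPM in 3. These 3 are the lines of the deeper table, so line and table cannot be told apart here. KRT6A stood at 37.7, 38.8, 39.4 and 39.7 CPM in the control libraries of SKCO1 and at 8.38, 8.54, 6.96 and 7.14 CPM in SW1417. It was at most 1.23 CPM in any other control library, and HT29 had 1 count in its 4 control libraries together. Within the deeper table KRT16 was highest in SW1417 (6.97, 6.36, 6.02 and 5.26 CPM) and reached 0.629 to 1.08 CPM in SKCO1. It stayed at or below 0.769 CPM in the control libraries of the other lines. KRT17 was highest within the same table in SW1417 (15.6, 17.3, 15.6 and 12.8 CPM), followed by HT29 (8.82, 8.68, 9.31 and 7.99 CPM), and was at most 0.794 CPM elsewhere.

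The 3 genes did not go together across lines. SW1417 held all 3, SKCO1 held KRT6A with little KRT16 and KRT17, and HT29 held KRT17 with almost no KRT6A or KRT16. SW948 had 0 counts of KRT16 and of KRT17 in all 8 libraries, where 3 counts would be 0.154 to 0.217 CPM over the libraries of that table. Per median transcript length in SW1417 controls, KRT17 (median 20.8) lay above KRT6A (10.1) and KRT16 (6), while KRT8 stood at 4755 on the same scale. With the longest transcript KRT16 (9.525) lay above KRT6A (8.555), and with the transcript of the longest coding sequence too (3.493 and 3.141). Their order thus rests on the length, while KRT17 stayed above both (21.57 and 8.786). KRT23 was detected mainly in SKCO1, at 1.95, 0, 1.47 and 1.9 CPM in the control libraries. It summed to 21 counts over the HT29 controls and 0 over those of SW1417.

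**Figure D2:**
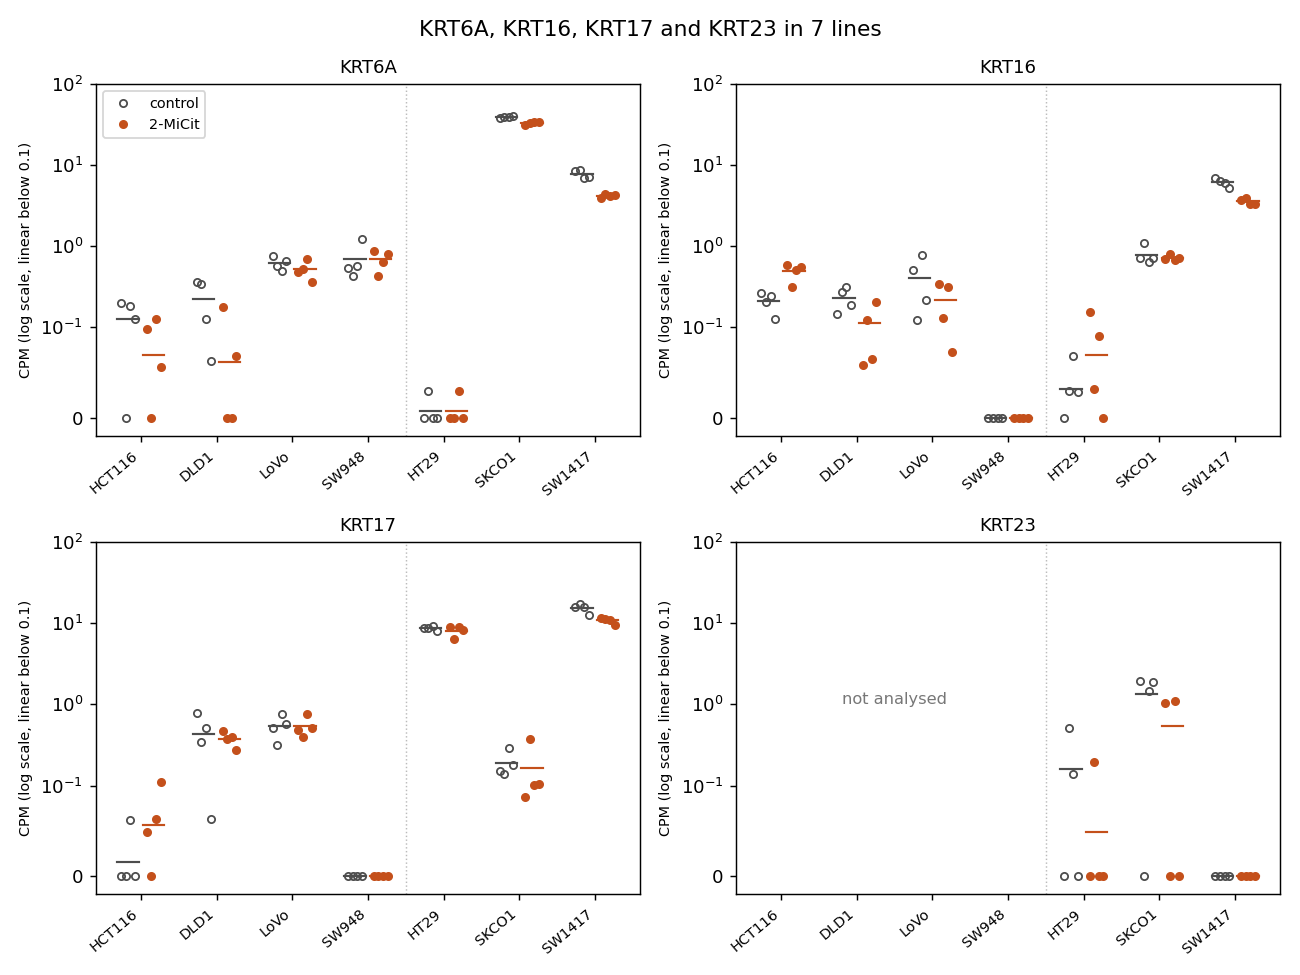
CPM of KRT6A, KRT16, KRT17 and KRT23 in each library, on an axis that is linear below 0.1 and logarithmic above, with control as open and 2-MiCit as filled circles and bars at the mean of 4 libraries. KRT6A stands out in SKCO1, KRT17 in SW1417 and HT29, and all 3 stress keratins of SW1417 are lower with 2-MiCit.

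With 2-MiCit the called members were all higher in HCT116 and all lower in SW1417 and SKCO1. In bulk libraries a smaller share of cells with a keratin and less of it per cell cannot be told apart. A gene is called where edgeR's quasi-likelihood test gives a Benjamini-Hochberg adjusted p below 0.05 over all genes of the line that pass its filter on low counts. In HCT116, 4 members passed the filter and 3 were called higher, where 19% of all tested genes were called higher and 18% lower. In SW1417, 7 passed and 6 were called lower, where 4.05% of genes were called lower and 2.94% higher. In SKCO1, 7 passed and 2 were called lower, beside 10.8% of genes lower and 8.1% higher. Since the list was drawn up with these changes in view, nothing is read from the counts of members against those shares.

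In the other 4 lines edgeR called none of the members. The members tested were 4 in DLD1, LoVo and SW948 and 5 in HT29. At an unadjusted p below 0.05 there were 1 in DLD1, 2 in LoVo, 1 in SW948 and 0 in HT29, and DESeq2 called none in any of them. Among all genes of HT29, 4.65% were called higher and 3.02% lower. The shares were 1.59% and 0.702% for LoVo, 0.148% and 0% for DLD1 and 0% and 0% for SW948. In SW948 edgeR called 0 of 13334 genes, with 479 higher and 409 lower at an unadjusted p below 0.05 and 0 called by DESeq2. The median log2 change of the tested members was 0.51 in HCT116 and -0.23 in SW1417, and between -0.20 and 0.12 in the other lines. Over all genes it was 0.03 in HCT116 and within 0.01 of 0 in the other lines.

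**Figure D3:**
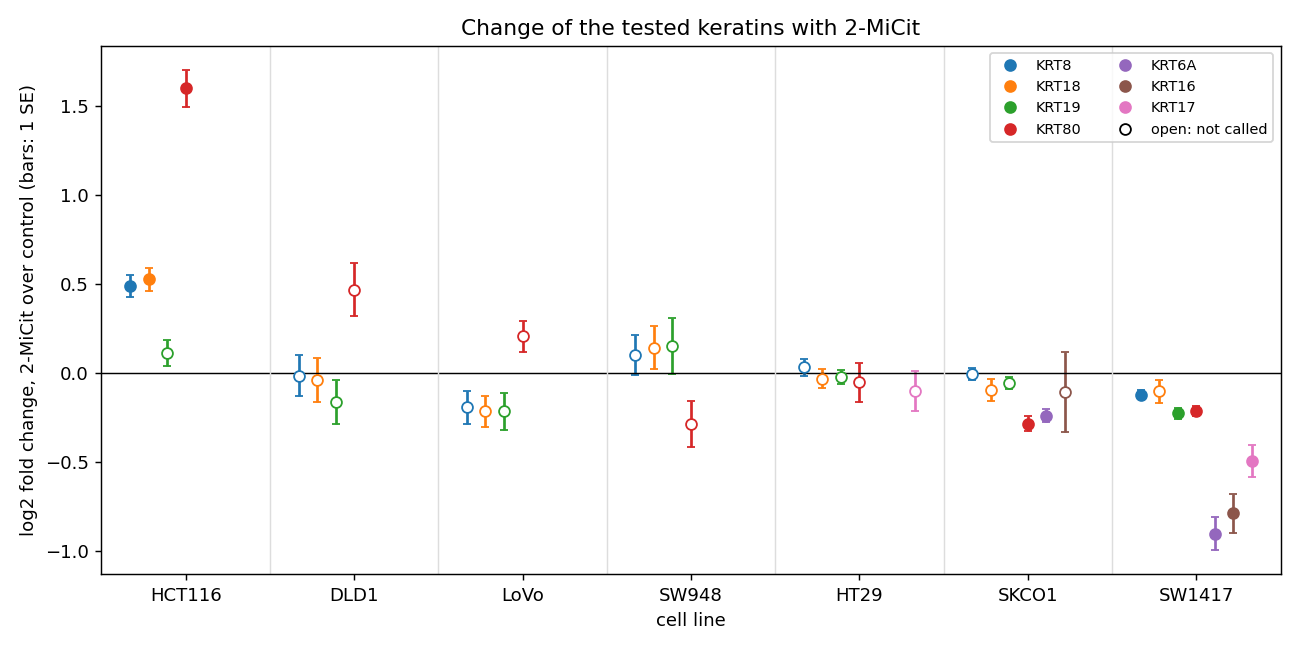
Log2 fold change of 2-MiCit over control with 1 SE for 7 members in the 7 lines, filled where the gene was called and open where it was not; KRT23 and members that did not pass the filter are left out. KRT80 in HCT116 (1.60) and KRT6A (-0.90) and KRT16 (-0.79) in SW1417 lie farthest from 0.

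KRT80 in HCT116 had the largest fitted change of any tested member. Its 4 control libraries held 11.9, 15.8, 16.7 and 14.3 CPM and its 4 2-MiCit libraries 42, 44.9, 43.8 and 49.6 CPM. Every treated library lay above every control, and the fitted change was 3.03-fold (log2 1.60 ± 0.10 SE, n = 4 per group). Even so, KRT80 in treated HCT116 stayed below the lowest control library of DLD1 (77.1 CPM).

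KRT8 and KRT18, partners in 1 filament, rose in HCT116 by nearly the same factor. KRT8 went from 2401, 2409, 2394 and 2230 CPM to 3292, 3299, 3694 and 3134 CPM, which is 1.40-fold (log2 0.49 ± 0.06 SE). KRT18 went from 1176, 1117, 1123 and 1015 CPM to 1668, 1570, 1732 and 1501 CPM, which is 1.44-fold (log2 0.53 ± 0.06 SE). In both genes the groups did not overlap. Across all genes of HCT116, 19.8% had every 2-MiCit library above every control and 15.5% every one below.

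KRT19 was not called in HCT116, at 1025, 979.7, 988.9 and 888.7 CPM in control and 1055, 1020, 1207 and 977.1 CPM with 2-MiCit (log2 0.11 ± 0.07 SE). These groups overlapped. KRT19 counts per KRT18 count went from 0.872 to 0.88 in the control libraries to 0.632 to 0.697 in the treated ones, with no overlap. The ratio was also lower without overlap in SW1417 (0.405 to 0.442 against 0.368 to 0.389) and DLD1 (0.175 to 0.187 against 0.162 to 0.172), and it overlapped in the other 4 lines. How often the ratio of a pair of genes separates the groups was not computed over all genes, so nothing is read from this. KRT8 counts per KRT18 count overlapped, at 2.043 to 2.196 in control and 1.974 to 2.133 with 2-MiCit. KRT16 did not pass the filter in HCT116, with 14 counts over the 4 control libraries and 35 over the treated ones, and the groups did not overlap. With no filter KRT16 was called higher there (log2 1.18 ± 0.39 SE).

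**Figure D4:**
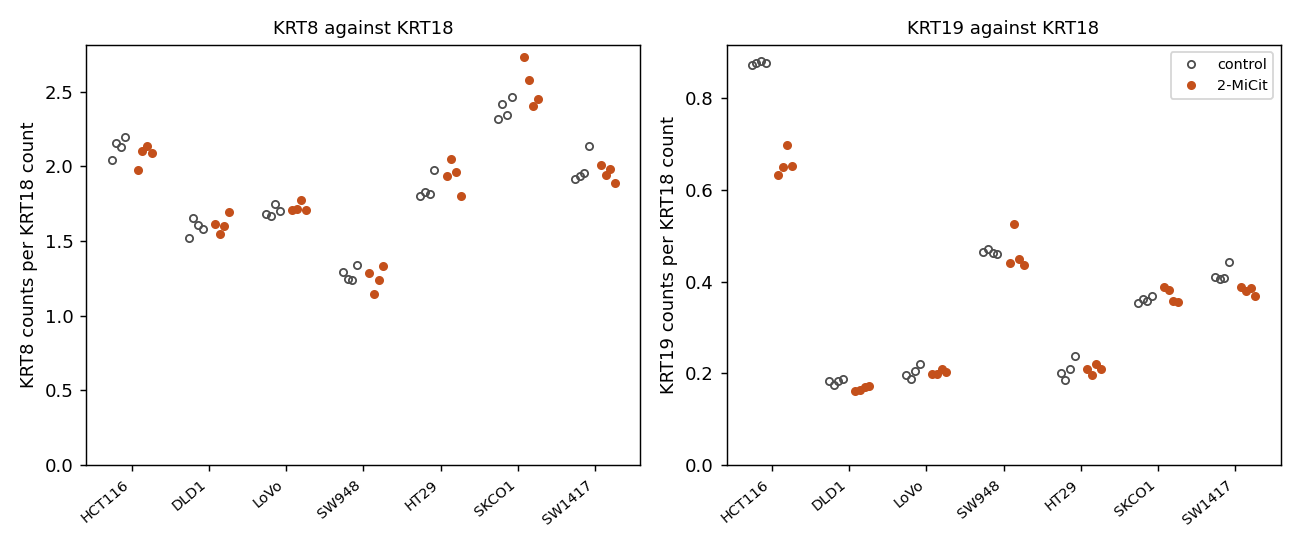
KRT8 and KRT19 counts per KRT18 count in each library of the 7 lines, control as open and 2-MiCit as filled circles, on linear axes from 0. In HCT116, SW1417 and DLD1 the KRT19 ratio is lower in every 2-MiCit library than in any control of the line, whereas the KRT8 ratio of these lines overlaps between the groups.

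In SW1417 the stress keratins had the largest decreases. KRT6A fell from 8.38, 8.54, 6.96 and 7.14 CPM to 3.88, 4.4, 4.09 and 4.21 CPM, and the control was 1.87-fold higher (log2 -0.90 ± 0.09 SE). KRT16 fell from 6.97, 6.36, 6.02 and 5.26 CPM to 3.73, 3.92, 3.32 and 3.28 CPM, with the control 1.73-fold higher (log2 -0.79 ± 0.11 SE). KRT17 fell from 15.6, 17.3, 15.6 and 12.8 CPM to 11.4, 11.4, 11.1 and 9.58 CPM, with the control 1.41-fold higher (log2 -0.49 ± 0.09 SE). None of the 3 overlapped between groups, which held for 7.61% of all genes lower and 6.54% higher in this line. The counts behind them were small, with 130 to 179 reads of KRT6A in a treated library.

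KRT6B, which shares much of its sequence with KRT6A, was not higher with 2-MiCit in SW1417. It stood at 10.5 ± 0.774 CPM in control and 8.96 ± 0.574 CPM with 2-MiCit (SD, n = 4 per group), not called by edgeR (adjusted p = 0.0619). Every treated library of KRT6B lay below every control (log2 -0.23 ± 0.07 SE), as for 7.61% of all genes of the line. KRT6A and KRT6B together went from 20, 18.7, 17.5 and 17 CPM to 13.4, 13.5, 12.2 and 13.3 CPM, a ratio of 0.717, with no overlap.

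The more abundant members fell by less in SW1417. KRT80 went from 171.9, 172.6, 165 and 156.9 CPM to 143.4, 143.7, 147.7 and 139.8 CPM (log2 -0.21 ± 0.03 SE). KRT19 went from 1050, 993.3, 974.1 and 917.3 CPM to 834, 844.8, 835.7 and 846.8 CPM (log2 -0.23 ± 0.03 SE). KRT8 went from 4912, 4747, 4687 and 4431 CPM to 4303, 4325, 4286 and 4342 CPM (log2 -0.12 ± 0.03 SE). All 3 were called lower without overlap. KRT18 overlapped, at 2568, 2450, 2394 and 2077 CPM against 2144, 2228, 2161 and 2300 CPM, and was not called (log2 -0.10 ± 0.06 SE). Without control library 4, its lowest control, KRT18 was called as well (log2 -0.16). When all 3 lines of the table shared 1 estimate of the spread, KRT6A and KRT19 kept their calls and KRT16, KRT17, KRT80 and KRT8 lost theirs, at nearly the same fold changes.

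SKCO1 had the most KRT6A of the lines in the deeper table and lost little of it. KRT6A fell from 37.7, 38.8, 39.4 and 39.7 CPM to 30.7, 32.4, 33.9 and 33.9 CPM, with the control 1.18-fold higher (log2 -0.24 ± 0.04 SE). KRT80 fell from 121.9, 118, 123.1 and 114.9 CPM to 88.1, 101.8, 102.6 and 97.5 CPM, with the control 1.22-fold higher (log2 -0.28 ± 0.04 SE). The groups did not overlap in either gene, as in 13.7% of all genes of SKCO1 lower and 9.11% higher. KRT8 stayed within its spread (8529 to 9212 CPM with 2-MiCit, log2 -0.01 ± 0.03 SE), and KRT18 (log2 -0.10 ± 0.06 SE) and KRT19 (log2 -0.06 ± 0.03 SE) overlapped too. KRT16 was near 1 CPM with log2 -0.11 ± 0.22 SE. KRT23 read 1.95, 0, 1.47 and 1.9 CPM in control and 1.05, 0, 1.11 and 0 CPM with 2-MiCit, so its fitted log2 change of -1.31 came with an SE of 1.40.

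In DLD1, LoVo, SW948 and HT29 no member was called, although KRT80 in DLD1 and KRT80 and KRT18 in LoVo did not overlap between groups. KRT80 in DLD1 went from 77.1, 118.1, 128.6 and 118.8 CPM to 168.3, 151.9, 141.8 and 150.8 CPM, without overlap and without a call (log2 0.47 ± 0.15 SE). Control library 1 of DLD1 stood apart in all 4 tested members, lowest for KRT80 and highest for KRT8 (7230 CPM), KRT18 (4755 CPM) and KRT19 (873 CPM). Without it the log2 change of KRT80 was 0.33 and that of KRT19 -0.04 in place of -0.16, and KRT8 and KRT18 turned from -0.01 and -0.04 to 0.08 and 0.09. In DLD1 7.53% of genes had every 2-MiCit library above every control and 6.24% every one below.

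LoVo had KRT80 at 10.1, 9.56, 10.3 and 9.08 CPM in control and 11.5, 12.2, 11.4 and 10.5 CPM with 2-MiCit, without overlap (log2 0.21 ± 0.09 SE). KRT18 went the other way there, from 2562, 2801, 2772 and 3302 CPM to 2447, 2523, 2542 and 2441 CPM, also without overlap (log2 -0.21 ± 0.09 SE). Neither was called, and 7.85% of LoVo genes lay wholly above and 5.35% wholly below the controls. KRT8 (log2 -0.19 ± 0.09 SE) and KRT19 (log2 -0.22 ± 0.11 SE) overlapped. Control library 4 was the highest of the line in KRT8, KRT18 and KRT19, and without it the 3 changes were -0.11, -0.13 and -0.08.

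SW948 and HT29 showed no member without overlap. In SW948 KRT80 stood at 13.6, 13.5, 14.6 and 13.9 CPM against 11.5, 8.57, 11.9 and 13.6 CPM (log2 -0.29 ± 0.13 SE), and KRT8, KRT18 and KRT19 had log2 changes of 0.10, 0.14 and 0.15. Treated library 2 held the least KRT80 and the most KRT18 (1145 CPM) and KRT19 (601.2 CPM), and without it KRT80 changed by -0.18 and KRT19 by -0.04. In HT29 KRT80 stood at 246, 212.3, 240.7 and 238.6 CPM against 239, 174.8, 247.5 and 243.8 CPM (log2 -0.05 ± 0.11 SE, and 0.05 without treated library 2). KRT17 in HT29 stood at 8.82, 8.68, 9.31 and 7.99 CPM against 8.96, 6.29, 9.05 and 8.12 CPM (log2 -0.10 ± 0.11 SE). KRT8, KRT18 and KRT19 of HT29 had log2 changes of 0.03, -0.03 and -0.02. Wholly above or below the controls were 2.88% and 2.15% of genes in SW948 and 9.15% and 6.8% in HT29.

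Other keratins were called by edgeR in HCT116, SW1417 and SKCO1 only. This list and the gene lists after it were chosen with earlier results of these data known. Adjusted p and called counts of these lists are therefore descriptions, and nothing is read from them against the shares of all genes. Of the 46 other keratin genes listed, 6 were tested in HCT116, of which 3 rose and 1 fell, beside 19% and 18% of all genes. KRT7, a type II keratin of ducts and glands, rose from 13.1 ± 0.47 to 29.1 ± 2.87 CPM (SD, n = 4 per group; 2.18-fold; edgeR adjusted p = 1.96e-05). KRT15, a type I keratin of basal cells, rose 1.40-fold, and KRT86, a hair keratin, rose from 0.411 to 1.22 CPM. KRT10, a type I keratin of differentiated epidermis, fell from 49.1 ± 3.34 to 39.3 ± 5.66 CPM with overlapping libraries (edgeR adjusted p = 0.0214). KRT20, a type I keratin of differentiated colon cells, had 0 counts in HCT116.

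In SW1417, where 4.05% of all genes fell, KRT7 was the 1 call among 10 tested keratins, lower from 655.7 ± 34 to 544 ± 5.53 CPM (log2 -0.27 ± 0.03 SE; edgeR adjusted p = 0.000126). KRT7 was thus called in opposite directions in HCT116 and SW1417, as KRT8 and KRT80 were, and the difference between these lines of separate tables was not tested. In SKCO1, 19 were tested, of which 1 rose and 1 fell, beside 8.1% and 10.8% of all genes. KRT5, the basal-layer type II keratin, rose from 15.1 ± 0.629 to 21.1 ± 1.05 CPM (1.40-fold; edgeR adjusted p = 1.66e-05) while KRT6A fell in the same libraries. KRT10 fell there (log2 -0.10 ± 0.03 SE; edgeR adjusted p = 0.0476). By edgeR 0 of 8 other keratins were called in DLD1, 0 of 9 in LoVo, 0 of 3 in SW948 and 0 of 8 in HT29. At an unadjusted p below 0.05 there were 3, 4, 1 and 1 in these lines, and DESeq2 called 1, 0, 0 and 0. The median log2 change of the tested other keratins was 0.441 in HCT116, -0.324 in LoVo and -0.251 in DLD1. It lay between -0.141 and 0.113 in the remaining lines.

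Of the genes that tie keratin filaments to desmosomes and hemidesmosomes, 17 were tested in HCT116. There 6 were called higher and 0 lower (9 at an unadjusted p below 0.05), beside 19% and 18% of all genes, and 11 were not called. ITGB4, the integrin beta chain of hemidesmosomes, rose 2.51-fold from 203 ± 14.4 to 515.9 ± 24.2 CPM (edgeR adjusted p = 1.71e-06). PPL, periplakin, a linker between keratin and desmosome, rose 2.35-fold from 41.1 ± 3.23 to 97.9 ± 13.1 CPM (edgeR adjusted p = 2.11e-05). JUP, plakoglobin, rose 1.33-fold and PKP2, plakophilin 2, 1.28-fold. The list's median log2 change was 0.23, against 0.03 over all genes of HCT116. In DLD1 the list's median was 0.255, against 0.003 over all genes, and in the other lines it lay between -0.142 and 0.053.

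In SW1417, 2 of 20 linker genes fell and 0 rose, beside 4.05% and 2.94% of all genes: JUP (log2 -0.11 ± 0.02 SE) and the desmosomal cadherin DSG2 (log2 -0.08 ± 0.02 SE). SKCO1 had 6 higher and 2 lower of 19, beside 8.1% and 10.8% of all genes, with PPL (log2 0.13) and PERP (log2 0.11) among the former and ITGA6, the integrin alpha chain of hemidesmosomes, among the latter (log2 -0.20). In HT29, 3 of 17 fell, beside 3.02% of all genes: ITGA6 (log2 -0.21), DSG2 (log2 -0.21) and DSC2 (log2 -0.22). In LoVo 1 of 18 rose, beside 1.59% of all genes: PPL (1.49-fold; edgeR adjusted p = 0.0144). EdgeR called 0 of 16 in DLD1 and 0 of 19 in SW948, with 4 and 1 at an unadjusted p below 0.05 and 1 and 0 called by DESeq2.

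Among intermediate filament genes other than keratins, 3 of 9 rose and 1 fell in HCT116, beside 19% and 18% of all genes. SYNM, synemin, rose 2.15-fold, BFSP1, the lens filament protein filensin, 1.99-fold, and LMNA, the nuclear lamin A/C gene, 1.27-fold, while LMNB1, lamin B1, fell (log2 -0.21 ± 0.05 SE). In SKCO1 LMNA fell instead (log2 -0.13 ± 0.03 SE), with LMNB1, LMNB2 and VIM, and NES rose, of 8 tested, beside 10.8% of all genes lower and 8.1% higher. LMNB1 fell in HT29 (1 of 5, beside 3.02% of all genes) and LMNB2 in SW1417 (1 of 7, beside 4.05%). EdgeR called 0 of 5 in DLD1, 0 of 8 in LoVo and 0 of 6 in SW948, with 0, 2 and 0 at an unadjusted p below 0.05 and none by DESeq2.

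**Figure D5:**
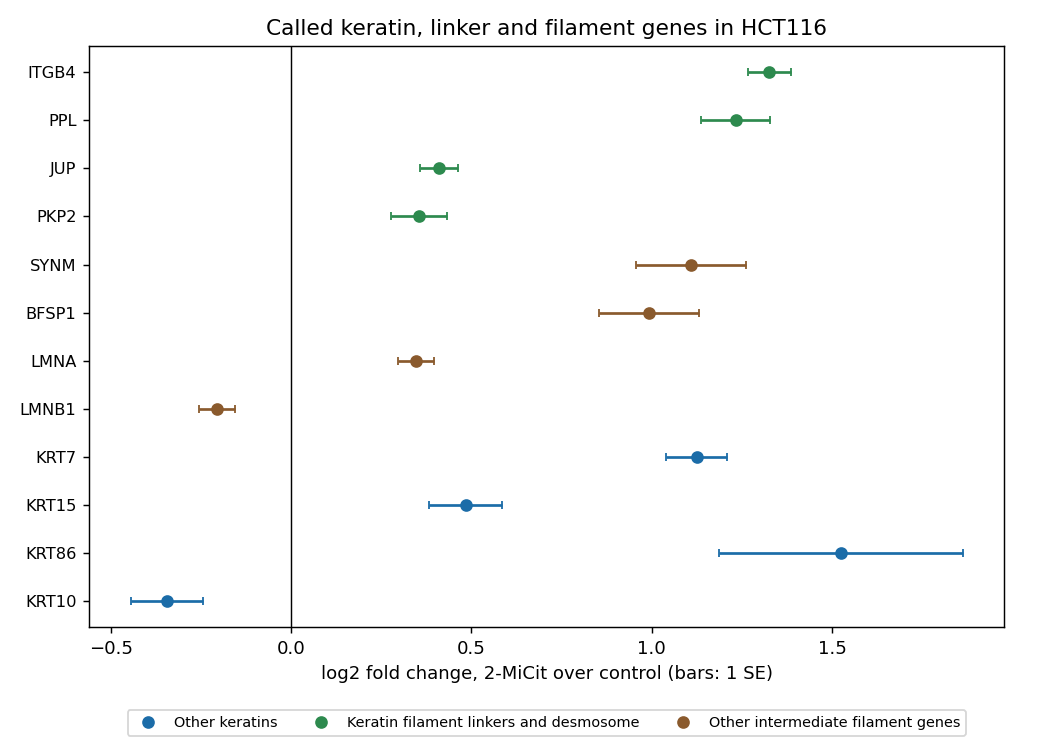
Log2 fold change of 2-MiCit over control in HCT116 with 1 SE for called genes outside the 8 members, up to 4 of each of 3 lists by smallest p, coloured by list. ITGB4 (1.33), PPL (1.23) and KRT7 (1.12) lie well above 0, and KRT10 and LMNB1 lie below it.

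Of 22 barrier and alarmin genes, which accompany stress keratins in skin, 7 to 11 passed the filter in a line. In SW1417, 4 of 9 tested fell and 0 rose (5 at an unadjusted p below 0.05), beside 4.05% and 2.94% of all genes: S100A11, S100A2, S100A16, which are calcium-binding proteins, and SFN, the 14-3-3 sigma gene, each by a log2 change between -0.24 and -0.15. S100A11 also fell in SKCO1 (log2 -0.15), LoVo (log2 -0.28) and HT29 (log2 -0.13), the 1 gene of the list called in LoVo (of 7 tested, beside 0.702% of all genes lower) and HT29 (of 10, beside 3.02%). S100A10 and S100A2 completed the 3 of 11 that fell in SKCO1, beside 10.8% of all genes. In HCT116, 2 of 8 rose, beside 19% of all genes: CSTA, cystatin A, a protease inhibitor of epidermis, from 3.65 ± 0.51 to 12 ± 1.83 CPM (3.24-fold; edgeR adjusted p = 3.04e-05), and CNFN, cornifelin, from 1.52 to 2.31 CPM (edgeR adjusted p = 0.0299). EdgeR called 0 of 8 in DLD1 and 0 of 9 in SW948, with 1 and 1 at an unadjusted p below 0.05 and none by DESeq2. That unadjusted threshold was met by 5 genes of the list for LoVo, 5 for SKCO1, 4 for HT29 and 2 for HCT116. DESeq2 called 3, 3, 2 and 1 for these lines, and 4 for SW1417. Median log2 change of the tested genes was -0.339 for DLD1, -0.241 for LoVo, -0.182 for SW1417 and 0.274 for SW948. It lay between -0.088 and 0.035 for the remaining lines.

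Transcription factors known at keratin promoters were called in 5 lines. In HCT116, 7 of 16 rose and 1 fell, beside 19% and 18% of all genes. Among those that rose were the AP-1 subunit JUN (1.56-fold), KLF4 (1.37-fold), the epithelial factor GRHL2 (1.51-fold) and GLI2 (1.37-fold). JUN also rose in DLD1 (1.79-fold; edgeR adjusted p = 0.0194), the 1 call of 16 there beside 0.148% of all genes, and with ETS2 (1.23-fold) in LoVo (1.45-fold), 2 of 16 beside 1.59%. In SW1417, 3 fell and 1 rose of 16, beside 4.05% and 2.94% of all genes. FOSL1, another AP-1 subunit, fell from 79.6 ± 4.42 to 62.8 ± 2.3 CPM (log2 -0.34 ± 0.04 SE; edgeR adjusted p = 0.000132), KLF4 and JUNB fell, and ETS2 rose 1.10-fold. In SKCO1, 4 of 16 fell, beside 10.8% of all genes, with FOSL1 first (302.9 ± 4.91 to 235.6 ± 8.3 CPM; log2 -0.35 ± 0.03 SE; edgeR adjusted p = 1e-06), then JUN, FOS and ETS2. EdgeR called 0 of 15 in SW948 and 0 of 16 in HT29, with 0 and 4 at an unadjusted p below 0.05 and 0 and 1 called by DESeq2. At that unadjusted p there were 9 in HCT116, 7 in DLD1, 6 in LoVo, 8 in SW1417 and 5 in SKCO1. In these lines DESeq2 called 8, 5, 4, 3 and 3. The list's median log2 change was 0.302 in DLD1 and 0.168 in HCT116, and between -0.094 and 0.042 in the other lines.

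The genes whose levels were most like a member's were sought among 10156 genes with at least 5 CPM on average in both tables, by Pearson r of log2(CPM + 1) over 32 and over 24 libraries. For KRT8 these were ZNF768 (r = 0.953 and 0.973) and MANEAL (0.948 and 0.948). For KRT18 they were MANEAL (0.916 and 0.941) and TMEM200A (0.948 and 0.903). TMEM200A had 0 counts in HT29 and SW1417, so its r over the 24 libraries rests on SKCO1 against these lines. MANEAL stood at 20.7 CPM in HT29 controls and 5.025 CPM in SW1417 controls, where KRT8 and KRT18 overlapped. For KRT19 they were FLYWCH2 (0.939 and 0.939) and EZR, the actin linker ezrin (0.933 and 0.991). For KRT80 they were EPRS, a glutamyl-prolyl-tRNA synthetase (0.922 and 0.949), and TMEM30A, a flippase subunit (0.907 and 0.921). These r follow the 4 or 3 line levels and are descriptions. With 2-MiCit in HCT116, where KRT80 changed 3.03-fold, EPRS rose 1.19-fold (edgeR adjusted p = 0.0237) and TMEM30A was not called (log2 0.17 ± 0.08 SE).

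The labelled cell type was checked against markers. Of 7 markers of colon epithelium, 6 have a row, and all 6 reached 1 CPM in every line except HCT116, where EPCAM, CDH1 and CDX2 did and VIL1 (0.186 CPM in control), CDH17 (0.132 CPM) and KRT20 (0 counts) did not. Endothelial markers summed to less than 2 CPM in every library. The fibroblast list summed to 14.5 to 22.1 CPM in HCT116 controls, nearly all COL1A1 (17.2 CPM), with COL3A1 at 0.031 CPM, and to 15.6 to 21.1 CPM with 2-MiCit. In LoVo it summed to 12.6 to 14.8 CPM in control, mostly COL3A1 (12 CPM), and in the other lines to less than 7 CPM. LYZ, lysozyme, which intestinal secretory cells also make, carried the leukocyte list in HT29 (1711 CPM) and SW948 (1027 CPM), with CD14 at 1.57 and 0.821 CPM. CD68, also of that list, stood at 11.2 CPM in HT29 and 11.5 CPM in SW948. Its control means ran from 6.7 CPM in DLD1 to 24.6 CPM in SKCO1. The summed squamous list, led by KRT10, was 45.2 to 53 CPM in HCT116 controls and 33.7 to 47.6 CPM with 2-MiCit, and 29.2 to 33.1 and 29.2 to 30.5 CPM in SW1417. These groups overlapped, as in DLD1 and SW948. The sum was lower with 2-MiCit without overlap in LoVo (60.9 to 64.3 against 48.8 to 56.4 CPM, with DSG3 at 35.5 CPM in control) and HT29 (40.9 to 43.1 against 38.8 to 40.6 CPM). In SKCO1, where KRT6A fell, it was higher without overlap (55.6 to 57.8 against 59.5 to 62.4 CPM), with KRT5 at 15.1 CPM in control and 21.1 CPM with 2-MiCit. The leukocyte sum was higher there too (74.7 to 79.8 against 80.8 to 86 CPM). In it LYZ went from 52.3 to 60.9 CPM and CD14 from 0.453 to 0.63 CPM, while CD68 went from 24.6 down to 21.7 CPM. The part of these genes in the results was not tested.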

How the data were processed

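The authors deposited raw read counts per gene in 2 tables, whole numbers that were used here for every value. They also deposited normalized values per gene, a signal on a linear scale, used here only as an alternative scaling. The submitters' processing notes list bcl2fastq 2.20.0, Trimmomatic 0.39, Salmon 1.5.0, DESeq2 and the build GRCh38.p13. Per the labels' protocols a stranded mRNA kit was used. Salmon shares reads between near-identical transcripts.

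Identifiers were matched to GENCODE 29 for symbols, coordinates and lengths, and 1156 of 16485 and 1186 of 16454 had no match. Each line was tested alone with edgeR 4.0.16 in R 4.3.3 (filterByExpr, TMM factors, robust quasi-likelihood F test, two-sided), adjusted over all tested genes and called below 0.05. CPM use TMM factors of the whole table. Per-length levels divide counts by the median transcript length. Shared sequence was counted over stretches of 31 bases. Sequences of the other members are not reported here. DESeq2 1.42.0 was an alternative. Counts were simulated for 13551 genes in DLD1 and 14651 in SKCO1, and a sample of the better counted genes was changed. The edgeR test recovered 36% of those changed 1.5-fold in DLD1 and 88% in SKCO1. Libraries were drawn independently, so these shares do not cover members with few counts or shifts common to 1 library.

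The named genes are the 8 members, the 2 genes most like each member in level by the smaller r of the tables, and up to 4 called genes of each list and line by smallest p. The members, the 5 gene lists and the marker lists were chosen with earlier results of these data known. Alternatives were other scaling, tool, filters, samples in the fit, the replicate number as a block, a length trend and leaving out each library. A further 3 were added after seeing the data: the authors' scaling, adding pseudogene counts, and the length of the longest coding transcript.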

Additional observations from a re-analysis of the deposited data

Results flagged for a closer look

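In 5 of 67 groups of 4 libraries at 1 CPM or more, 1 library lay far from the others by Dixon's test, and chance flags about 1 group in 20. KRT18 and KRT19 were highest in the same DLD1 control library, at 4755 and 873 CPM, where KRT80 was lowest and KRT8 highest. KRT19 was highest in SW948 treated library 2, at 601.2 CPM. KRT80 was lowest in HT29 treated library 2, at 174.8 CPM, and KRT8 was lowest in HCT116 control library 4, at 2230 CPM. Each of these libraries counts for the fold changes of its line, which the account of DLD1, SW948 and HT29 gives with and without it.

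KRT18 lay on opposite sides of its controls in 2 lines of the same table. Every treated library of HCT116 was above the controls (log2 fold change 0.53, called), as for 19.8% of all genes there. Every treated library of LoVo was below the controls (log2 fold change -0.21), as for 5.35% of all genes there. The LoVo change was not called, and it was -0.13 without control library 4. The difference between the lines was not tested.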

How the results depend on the processing

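The 3 calls in HCT116 and the 2 in SKCO1 held under every alternative run, and no alternative reversed a call. Of the fold changes of tested members under the alternatives, 607 stayed on their side of the threshold, 5 lost a call and 4 gained one. HCT116 went to 4 called members with the replicate block and the length trend removed, where KRT19 was called (log2 0.12), as with the replicate block alone (0.11). It also went to 4 with no filter, where KRT16, not tested otherwise, was called (log2 1.18), the 1 call among 14 fits of members that the filter leaves out. In SW1417 leaving out a library gave 6 to 7 called members and 2 with 1 fit over the table, and KRT8 lost its call under the authors' scaling (log2 -0.12). In DLD1 1 fit for all lines called 1 member, KRT80 (log2 0.47). The cause was not tested. Counts of called genes moved more. DLD1 had 20 genes, against 487 with DESeq2, 40 with a stricter filter, 0 with the replicate block, 32 with the length trend removed, 0 with both, 1350 in 1 fit over the table and 1 to 183 without 1 library (183 without control 1). LoVo had 314, against 973 with DESeq2, 202 in 1 fit and 36 (without control 3) to 1068 (without control 1). SW948 had 0, against 2 in 1 fit and 0 to 3. HT29 had 1065, against 2184 with the replicate block, 2190 with the length trend removed too, 475 under the authors' scaling, 2492 in 1 fit and 452 (without control 3) to 1114. SKCO1 had 2776, against 1197 under the authors' scaling, 1636 in 1 fit and 2045 to 2994 without 1 library. SW1417 had 984, against 210 and 437 under these and 490 (without treated library 3) to 1130, and HCT116 5124, against 7022 with the replicate block, 7002 with the length trend removed too, 4035 in 1 fit and 4013 to 5087 without 1 library. Replicate numbers were not taken as pairs, since in no line did every pair of same-numbered libraries correlate above 0.1 in its deviations. In HCT116 these were 0.284, 0.084, 0.117 and 0.213 and each library was closest to its own number, a hint of pairing from the data, and in the other lines -0.324 to 0.194. Members under about 5 CPM rest on few counts, and 3 counts are 0.066 to 0.217 CPM.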

Other observations

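Control levels of other keratins set the lines apart as well. KRT7, of ducts and glands, stood at 655.7 ± 34 CPM in SW1417 (SD, n = 4) and at 7.46 ± 0.641 CPM in HT29 and 4.38 ± 0.34 CPM in SKCO1. In the other table KRT7 was 13.1 ± 0.47 CPM in HCT116 and 0.554 ± 0.261 CPM in SW948. KRT20, of differentiated colon cells, ran from 156.1 ± 7.18 CPM in SKCO1 to 47 ± 3.79 CPM in HT29, and from 75.2 ± 13.1 CPM in SW948 to 2.27 ± 1.38 CPM in LoVo and 0 in HCT116. KRT5, of basal cells, reached 15.1 ± 0.629 CPM in SKCO1, the line of its table with the most KRT6A. Its control mean was at most 1.44 CPM in the other lines. KRT4 and KRT13, a pair of mucosal squamous epithelium, stood at 6.44 ± 1.46 and 6.14 ± 1.08 CPM in LoVo, whereas HT29 held KRT13 (5.49 ± 1.22 CPM) with almost no KRT4 (0.039 CPM).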
